A study of Mus musculus with 18 samples.

Results

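The lysyl oxidase family was followed in mouse knee cartilage after rupture of the anterior cruciate ligament (ACL). Its members are the 5 genes Lox, Loxl1, Loxl2, Loxl3 and Loxl4. They were taken by name from the 49184 genes to which the deposited transcripts could be assigned, and all 5 passed the filter on low counts. The 18 libraries hold total RNA, depleted of ribosomal RNA, from femoral condyle cartilage caps of male C57Bl/6J mice aged 12 weeks. In the injured mice a single load of 12 N was put on the right knee until the ligament gave way, and the left knee served as the contralateral control. The groups were naïve (6 libraries), day 1 contralateral, day 1 injured, day 7 contralateral and day 7 injured (3 libraries each). The naïve libraries are labelled as day 7, so day 1 libraries differ from them in the labelled day as well. The replicate numbers used below were given here, in order of deposit within a group, and only name a library. No group carried an engineered allele or received a further agent for the comparison, apart from the anaesthetic and analgesic given for the loading. Each library was a pool of knees. By the study's schematic a day 1 pool came from 2 mice and a day 7 pool from 4, and the naïve pools came from 6 mice, with left knees kept apart from right knees. The series text puts 4 mice into each pool. Some naïve libraries may thus come from the same animals, and injured and contralateral pools of a day may hold knees of the same mice. The study's own model allowed for shared mouse pools. No label tells which libraries share mice, so every p-value here treats libraries as independent, and the effect of shared mice was not tested.

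Lysyl oxidases are secreted, copper-dependent amine oxidases. They convert lysine and hydroxylysine side chains of collagens and of elastin into aldehydes, which then condense into the covalent cross-links that stiffen collagen fibrils and elastic fibres. Lox and Loxl1 form one subfamily, made as proenzymes with a propeptide that is cut off by proteases of the Bmp1 type, and Loxl1 is known for its role in elastic fibres. Loxl2, Loxl3 and Loxl4 form the other, with scavenger receptor cysteine-rich domains ahead of the catalytic domain. Cartilage depends on such cross-links in its collagen network.

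All members share the stretch of the catalytic domain whose histidines hold the copper ion. It is shown here as a catalytic feature that all 5 members have in common. The stretches of 4 members are printed, and that of Lox was compared with them but is not printed here. In the main coding transcript of each gene it covers 11 codons, or 33 bases, and it is interrupted by an intron in all 5 genes. The spliced coding sequences below were read 5′ to 3′ from the GENCODE transcripts of GRCm38, with the 4 histidine codons in capitals. For Loxl1 the stretch lies at codons 476 to 486 in exons 3 and 4 of 7 (chr9:58293720-58294381, minus strand, intron included). For Loxl2 it lies at codons 622 to 632 in exons 10 and 11 of 14 (chr14:69682316-69689037, plus strand). For Loxl3 it lies at codons 602 to 612 in exons 10 and 11 of 14 (chr6:83049995-83050125, plus strand). For Loxl4 it lies at codons 606 to 616 in exons 11 and 12 of 15 (chr19:42598807-42599899, minus strand).
Loxl1: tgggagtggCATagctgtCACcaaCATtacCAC
Loxl2: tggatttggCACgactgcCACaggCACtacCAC
Loxl3: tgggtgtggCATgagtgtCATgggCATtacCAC
Loxl4: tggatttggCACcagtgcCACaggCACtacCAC
The stretches of Loxl2 and Loxl4 were identical at 31 of 33 bases and 10 of 11 encoded residues. The stretch of Loxl1 matched that of Lox at 32 of 33 bases and at all 11 residues, and every other pair of members matched at 21 to 25 bases and 8 residues. The coding sequences of Lox and Loxl1 held 12 cysteine codons each, against 36 in Loxl2, 39 in Loxl3 and 35 in Loxl4.

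Estimated counts per library totalled between 16074762 and 41794005, with a median of 25465706. Levels are given as CPM, the count of a gene scaled to a common library size, after TMM scaling over the 18 libraries. Before the results, 4 libraries need to be named, because they stood apart from the rest of their groups. The library labelled day 7 contralateral replicate 1 spent 42.5% of its counts on its top 10 genes, where the other libraries spent 16.6% to 29.8%. The other 3 were the libraries labelled naïve replicate 5, day 1 contralateral replicate 3 and day 1 injured replicate 2. These 3 shared high levels of genes known from the acute response to tissue injury. Of these, 8 were chosen after their values were seen (Timp1, Ptx3, Ccl2, Il6, Il11, Cxcl1, Tnfaip6 and Has1), and all 8 were higher in each of the 3 libraries than in any of the 12 other libraries outside the day 7 injured group.

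Timp1, an inhibitor of metalloproteinases, was at 87.7 to 94.1 CPM in the 3 libraries and at 5.26 to 15.4 CPM in the 12 others. Ptx3, an acute-phase pentraxin, was at 22.4 to 28.2 CPM against 1.99 to 6.23 CPM. Ccl2, a chemokine that draws monocytes, was at 13.3 to 17.9 CPM against 0.322 to 3.13 CPM. The inflammatory cytokine Il6 was at 2.03 to 3.21 CPM in the 3 libraries and at or under 0.606 CPM in the 12 others. In the day 7 injured libraries, Timp1 (59.1 to 83.3 CPM) and Ptx3 (12.9 to 13.1 CPM) also lay above the 12 others. So did Tnfaip6 (39.98 to 78.2 CPM), Has1 (20.7 to 44.6 CPM) and Il11 (1.59 to 3.05 CPM). Tnfaip6 was higher there than in the 3 libraries (19.6 to 37.1 CPM). Ccl2 (1.68 to 3.05 CPM), Il6 (0.4995 to 0.925 CPM) and Cxcl1 (0.4435 to 2.45 CPM) overlapped with the 12 others. High levels of most of these genes were thus not confined to the 3 libraries. The acute injury genes were thus high in 1 of 3 libraries labelled day 1 injured, in 1 of 3 labelled day 1 contralateral and in 1 of 6 labelled naïve. The libraries labelled naïve replicate 5 and day 1 contralateral replicate 3 had these levels, although per the labels they came from knees that were not loaded, and the other 2 libraries labelled day 1 injured did not have them. What level a loaded knee has at day 1 is not known from these files, and whether any label is wrong was not tested. The groups were kept as labelled, so that the comparisons of day 1 injured with naïve or day 1 contralateral libraries have libraries with and without these levels on both sides. Each comparison of the members is given with all libraries and again without these 3.

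**Figure D1:**
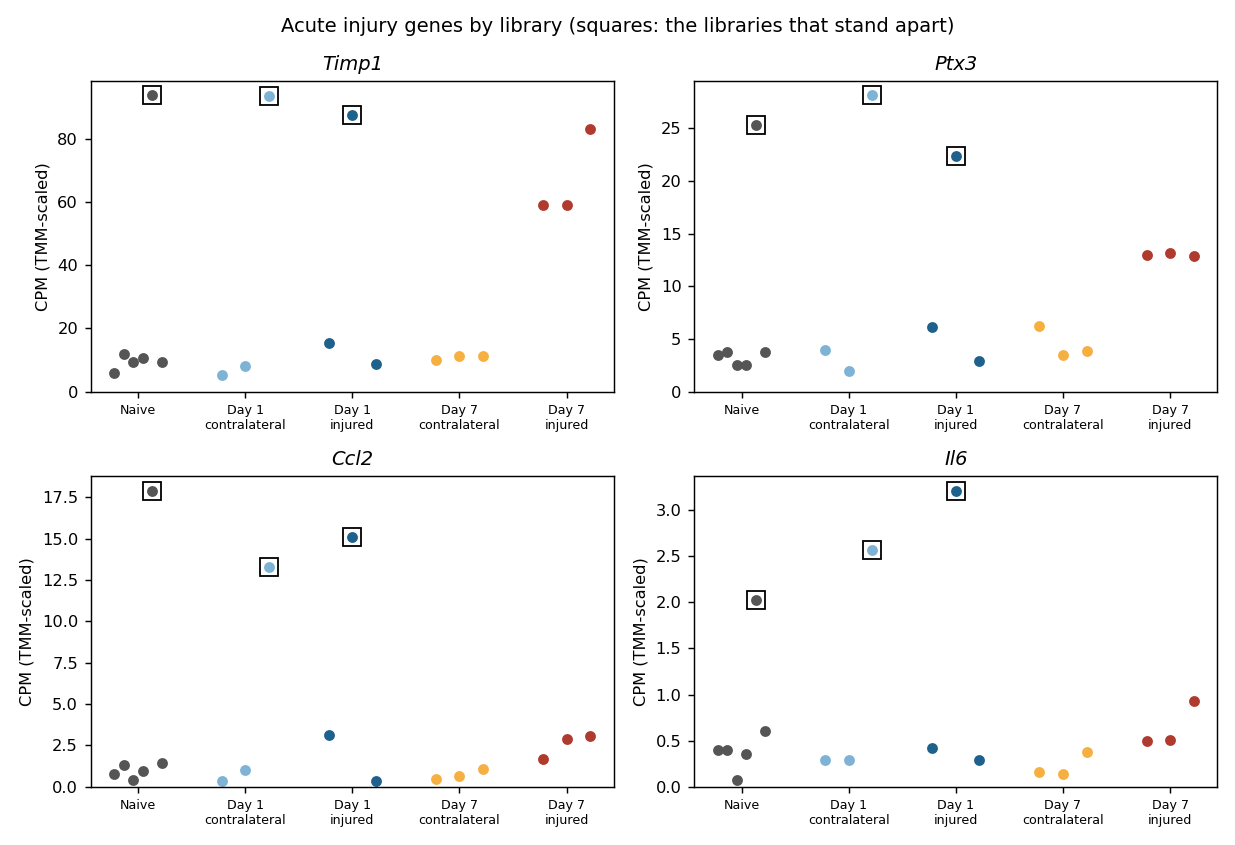
Level in CPM (y axis) of Timp1, Ptx3, Ccl2 and Il6 in each library (points) of the 5 groups (x axis), with squares around naïve replicate 5, day 1 contralateral replicate 3 and day 1 injured replicate 2. Timp1 lay between 87.7 and 94.1 CPM in the 3 squared libraries and at or under 15.4 CPM in the other naïve, day 1 and day 7 contralateral libraries.

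At day 7 post injury, all 5 members were higher in the injured knees than in naïve mice. Loxl2 rose most, 7.36-fold, followed by Lox (4.81-fold), Loxl3 (3.78-fold), Loxl1 (3.51-fold) and Loxl4 (1.73-fold). Each was called by edgeR's quasi-likelihood test, which here means a 1.5-fold change or more and a false discovery rate (FDR) no higher than 0.05. Of the 21129 genes tested, 10.4% were called higher and 6.11% lower in this comparison. For each member, the lowest of the 3 injured libraries was above the highest of the 6 naïve ones, which was so for 17.4% of all genes tested. In TPM, the deposited abundance scaled by transcript length, Loxl4 overlapped between the groups (naïve up to 3.53 TPM, day 7 injured from 3.03 TPM) and was not called. Without the 3 libraries with high acute injury genes all 5 were called, where 10.6% of all genes were called higher. The median log2 fold change was 1.92 over the members and −0.04 over all genes tested. More cells of a type and more RNA per cell cannot be told apart in such bulk samples.

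**Figure D2:**
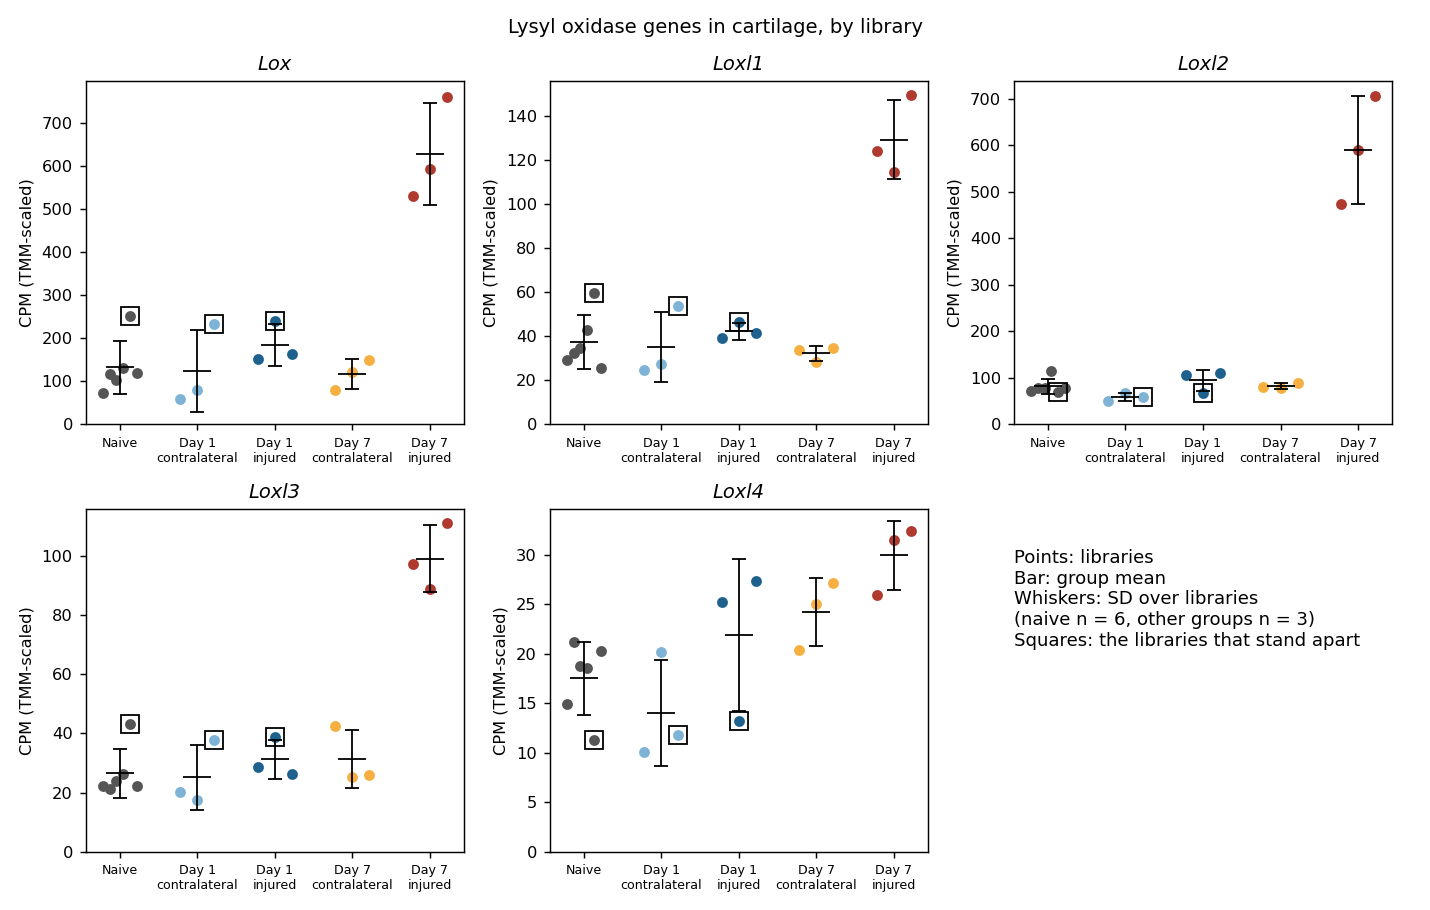
Level in CPM (y axis, linear from 0, a separate scale for each gene) of the 5 lysyl oxidase genes in each library (points) of the 5 groups (x axis), with the group mean (bar) and SD (whiskers; n = 6 naïve and 3 in the other groups). The day 7 injured points lie above all others for Lox, Loxl1, Loxl2 and Loxl3, and squares mark the 3 libraries with high acute injury genes.

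Lox, the founding member, is encoded on the minus strand of chromosome 18 (52516067 to 52529867, GRCm38) and was measured by 2 coding transcripts. In the naïve libraries its level ranged from 73.1 to 251 CPM with a median of 118 CPM. The day 1 contralateral libraries held 57.4, 78.7 and 232.5 CPM, and the day 1 injured libraries 150.5, 239.6 and 162 CPM. At day 7, the contralateral libraries held 79.1, 121 and 150 CPM and the injured libraries 530, 593 and 761 CPM. Every day 7 injured library was thus above every other library. The 4 other groups overlapped, except that the day 1 injured libraries (from 150.5 CPM) lay just above the day 7 contralateral ones (up to 150 CPM). The 3 highest values outside the day 7 injured group were those of the 3 libraries with high acute injury genes. These held 232.5 to 251 CPM, against 57.4 to 162 CPM in the 12 others. The 3 libraries were picked for their values, and how many of all genes separate them from the 12 others was not counted. Against naïve mice, the day 7 log2 fold change was 2.27 (SE 0.38, FDR = 3.934e-04). Without the 3 libraries it was 2.54 (SE 0.17, FDR = 1.754e-07).

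Loxl1, the member closest to Lox in sequence, lies on the minus strand of chromosome 9 (58287738 to 58313186) and has 1 transcript in the files. The naïve libraries ranged from 25.4 to 59.3 CPM with a median of 33.4 CPM. The day 1 contralateral libraries held 24.4, 27.2 and 53.5 CPM, the day 1 injured libraries 38.9, 46.3 and 41.2 CPM, and the day 7 contralateral libraries 33.7, 28.3 and 34.5 CPM. The day 7 injured libraries held 124, 114 and 149 CPM, and the lowest of them was above every library of the other groups. As for Lox, the 3 libraries with high acute injury genes (46.3 to 59.3 CPM) lay above the 12 others (24.4 to 42.5 CPM). The share of all genes with this split was not counted. The log2 fold change against naïve mice was 1.81 (SE 0.25, FDR = 5.957e-05), and 1.98 without those 3 libraries.

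Loxl2, which cross-links collagen IV as well as fibrillar collagens, lies on the plus strand of chromosome 14 (69609068 to 69695834) and was measured by 2 coding transcripts. The naïve libraries ranged from 68.9 to 114 CPM with a median of 77.5 CPM. The day 1 contralateral libraries held 49.5, 67.2 and 58.9 CPM and the day 1 injured libraries 105, 66.8 and 109 CPM. The day 7 contralateral libraries held 80.2, 77.4 and 89.2 CPM, close together and within the naïve range. The day 7 injured libraries held 474, 589 and 706 CPM, all above every library of the other groups. Unlike Lox and Loxl1, Loxl2 was not high in the 3 libraries with high acute injury genes, which held 58.9 to 68.9 CPM against 49.5 to 114 CPM in the 12 others. The log2 fold change against naïve mice was 2.88 (SE 0.18, FDR = 2.153e-08), and 2.82 (SE 0.16) without those 3 libraries. Gm27177, a gene annotated within the same interval on the other strand, was at 22.2 ± 3.78 CPM (SD, n = 6) in naïve and 22.04 ± 4.85 CPM (SD, n = 3) in day 7 injured libraries (FDR = 0.989).

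Loxl3, known for its role in the matrix of cartilage and of the palate and spine, lies on the plus strand of chromosome 6 (83034173 to 83052562). The naïve libraries ranged from 21.1 to 43.1 CPM with a median of 23.0 CPM. The day 1 contralateral libraries held 20.3, 17.3 and 37.7 CPM, the day 1 injured libraries 28.6, 38.6 and 26.4 CPM, and the day 7 contralateral libraries 42.5, 25.2 and 25.9 CPM. The day 7 injured libraries held 97.1, 88.8 and 111 CPM and did not overlap with any other group. The 3 libraries with high acute injury genes (37.7 to 43.1 CPM) and day 7 contralateral replicate 1 (42.5 CPM) were the highest of the rest. The log2 fold change against naïve mice was 1.92 (SE 0.24, FDR = 2.516e-05), and 2.10 without the 3 libraries. Htra2, which overlaps Loxl3 on the other strand, was at 30.8 ± 3.01 CPM (SD, n = 6) in naïve and 30.5 ± 2.65 CPM (SD, n = 3) in day 7 injured libraries (FDR = 0.977).

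Of the 5 Loxl3 transcripts, the full-length coding one took 65.7% ± 5.25 (SD, n = 6) of the gene's TPM in naïve libraries and 81.0% ± 3.23 (SD, n = 3) in day 7 injured libraries, with ranges that did not overlap, and 77.5% (68.5% to 83.2%) in day 1 injured libraries, which overlapped with both. A transcript annotated with a retained intron took 9.90% ± 3.84 and 1.37% ± 2.38 of it. Its mean level was 0.515 TPM in naïve and 0.221 TPM in day 7 injured libraries, so that these shares rest on few reads. The difference in shares was not tested, and how many other genes have such a difference was not counted.

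Loxl4 lies on the minus strand of chromosome 19 (42593982 to 42612813) and was measured with 262 to 805 counts per library. The naïve libraries ranged from 11.3 to 21.2 CPM with a median of 18.7 CPM. The day 1 contralateral libraries held 10.1, 20.2 and 11.8 CPM and the day 1 injured libraries 25.3, 13.2 and 27.3 CPM. The day 7 contralateral libraries held 20.4, 25.0 and 27.2 CPM and the day 7 injured libraries 26.0, 31.5 and 32.4 CPM. The day 7 injured libraries exceeded the naïve range but overlapped with the day 7 contralateral and the day 1 injured ones. The 3 libraries with high acute injury genes were among the lowest, at 11.3 to 13.2 CPM. The log2 fold change against naïve mice was 0.79 (SE 0.24, FDR = 0.0225), and 0.67 without the 3 libraries (FDR = 0.0111). It was no longer called when day 7 injured replicate 2 (0.75, FDR = 0.0735) or replicate 3 (0.74, FDR = 0.0862) was left out.

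Against the contralateral knee of day 7, which asks whether the difference is confined to the injured joint, 4 of the 5 members were called higher, where 9.33% of the 21262 genes tested were. Loxl2 was 7.17-fold higher (log2 fold change 2.84, SE 0.22, FDR = 1.193e-07) and Lox 5.38-fold higher (2.43, SE 0.47, FDR = 0.00134). Loxl1 was 4.01-fold (FDR = 1.005e-04) and Loxl3 3.19-fold higher (FDR = 7.187e-04). The injured libraries lay above the contralateral ones for these 4 members, as for 18.6% of all genes tested. Loxl4 was not called: its mean was 24.2 ± 3.46 CPM (SD, n = 3) in contralateral and 30.0 ± 3.47 CPM (SD, n = 3) in injured knees, and the 95% interval of its log2 fold change ran from −0.30 to 0.90. Leaving out day 7 contralateral replicate 1 gave log2 fold changes of 2.23 for Lox and 1.98 for Loxl3. The 3 libraries with high acute injury genes are in neither group, and without them in the fit Lox, Loxl1, Loxl2 and Loxl3 were called and Loxl4 was not, where 9.61% of all genes were called higher. The comparisons with naïve and with contralateral libraries share the day 7 injured libraries.

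Between the injured knees of day 7 and those labelled day 1, 4 of the 5 members were called higher at day 7, where 9.04% of all genes tested were. Loxl2 differed 6.37-fold, Lox 3.45-fold, Loxl3 3.21-fold and Loxl1 3.10-fold. Loxl4 was not called (log2 fold change 0.47, 95% interval −0.15 to 1.10). The call for Lox (log2 fold change 1.79, SE 0.47, FDR = 0.0133) was lost without day 1 injured replicate 1 (1.65, FDR = 0.0527) or replicate 3 (1.70, FDR = 0.0503). Without the 3 libraries with high acute injury genes, Lox, Loxl1, Loxl2 and Loxl3 were called and Loxl4 was not, with log2 fold changes of 1.999, 1.68, 2.45, 1.84 and 0.18, where 8.38% of all genes were called higher.

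These differences between the injured groups depended on the scale. In the deposited TPM, without TMM scaling, the mean of day 7 injured libraries was 3.45-fold that of day 1 injured ones for Loxl2, 1.92-fold for Lox, 1.70-fold for Loxl1, 1.69-fold for Loxl3 and 0.803-fold for Loxl4. On that scale all genes were shifted, with a median log2 change of −0.60 over the 21129 genes, and limma on log2(TPM + 0.5) called 1.42% of them higher and 50.1% lower. Loxl2 (1.78, FDR = 1.662e-04), Loxl1 (0.73, FDR = 0.0369) and Loxl3 (0.73, FDR = 0.0420) were called higher, and Lox (0.92, FDR = 0.0580) and Loxl4 (−0.22, FDR = 0.453) were not called. Relative to the median of all genes the changes were 2.39 for Loxl2, 1.52 for Lox, 1.33 for Loxl1 and Loxl3 and 0.38 for Loxl4. Against naïve mice the median of all genes was −0.21, and the 4 members other than Loxl4 were called on that scale (1.29 to 2.45), where 3.87% of all genes were called higher. Loxl4 was not (0.45, FDR = 0.163). Against the day 7 contralateral knees the same 4 were called (1.35 to 2.63), where 2.43% of all genes were called higher.

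**Figure D3:**
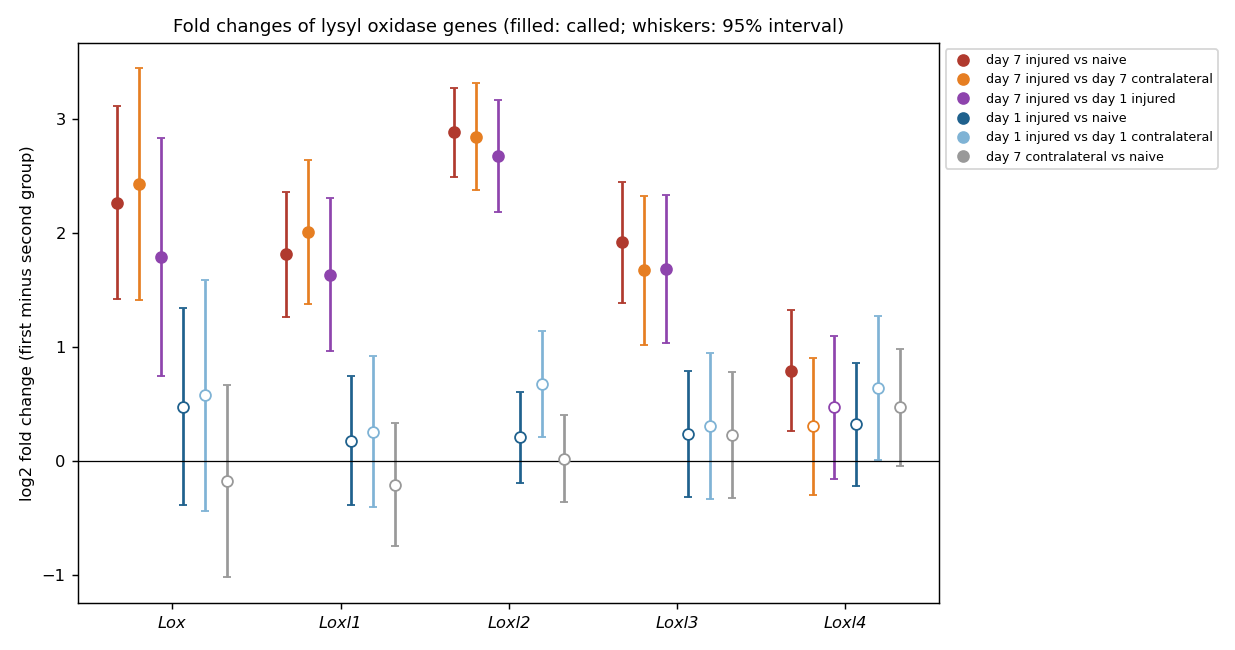
Log2 fold change (y axis, first minus second group) of each lysyl oxidase gene (x axis) in 6 comparisons (colours), with 95% intervals as whiskers, filled where the gene was called and open where it was not. Loxl2 lies between 2.67 and 2.88 in the 3 comparisons of day 7 injured knees, and every fold change without that group is open.

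In the libraries labelled day 1, edgeR called no member. Between day 1 injured and naïve libraries the log2 fold changes ran from 0.18 for Loxl1 to 0.48 for Lox, with 95% intervals reaching 1.34, and 0 of the 5 were called where edgeR called 0% of all genes tested. No member had an unadjusted p under 0.05, which 4.54% of all genes had. DESeq2 called 15 genes and limma-voom 0 in this comparison, none of them a member. In each of these groups 1 library had high acute injury genes. Without the 3 libraries edgeR again called 0% of all genes, and the log2 fold changes of the members ran from 0.26 to 0.54. In that fit Lox (0.54, FDR = 0.664), Loxl4 (0.50, FDR = 0.670) and Loxl3 (0.26, FDR = 0.691) had an unadjusted p under 0.05, where 7.18% of all genes had one. On the scale of the deposited TPM, where the median log2 change of all genes was 0.42, limma called 4 members higher at day 1, with 13.2% of all genes. These were Lox (1.07), Loxl1 (0.73), Loxl4 (0.67) and Loxl2 (0.66), with FDR from 0.0247 to 0.0313, and relative to that median they were 0.65, 0.31, 0.25 and 0.25.

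Between day 1 injured and day 1 contralateral libraries, 0 of the 5 members were called and 0% of all genes (edgeR; DESeq2 and limma-voom also called 0). At an unadjusted p under 0.05 there were 2 members, Loxl2 (log2 fold change 0.68, FDR = 0.755) and Loxl4 (0.64, FDR = 0.755), and 6.55% of all genes. Lox gave 0.58 with all libraries and 1.20 without the 3 libraries (FDR = 0.234), which leaves 2 libraries in each group. Loxl2 gave 0.89, Loxl4 0.80, Loxl1 0.64 and Loxl3 0.55 in that fit (FDR from 0.253 to 0.290), and all 5 members had an unadjusted p under 0.05, where 11.1% of all genes had one. edgeR called 0% of all genes in this comparison when they were left out. Between day 1 contralateral and naïve libraries, 0 members and 0% of all genes were called by edgeR, 0 genes by limma-voom and 2 by DESeq2. The 3 day 1 contralateral libraries all lay below the 6 naïve libraries in Loxl2, as for 0.753% of all genes (means 58.5 ± 8.85 and 81.1 ± 16.7 CPM, SD), the 1 member with an unadjusted p under 0.05, which 2.62% of all genes had (edgeR, log2 fold change −0.47, FDR = 0.9998). Without the 3 libraries no member was called there. The members with an unadjusted p under 0.05 were then 3, all lower in the contralateral libraries, where 4.15% of all genes had one. They were Lox (−0.67), Loxl2 (−0.52) and Loxl3 (−0.30), each at FDR = 0.998.

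The day 7 contralateral libraries, compared with naïve mice, gave 0 members called and 0% of all genes by edgeR. DESeq2 called 8 genes and limma-voom 0, none of them a member, and no member had an unadjusted p under 0.05, which 15.1% of all genes had. The log2 fold changes ran from −0.21 for Loxl1 to 0.47 for Loxl4. Between the contralateral libraries of day 7 and day 1, 0 members were called and 0.0188% of all genes, which is 4 genes (DESeq2 called 81 and limma-voom 0, none a member). The 2 members with an unadjusted p under 0.05 from edgeR were Loxl2 (log2 fold change 0.49, FDR = 0.364) and Loxl4 (0.79, FDR = 0.326), where 12.4% of all genes had one. The day 7 libraries of both lay above their day 1 libraries, as for 7.37% of all genes. In both comparisons edgeR called no gene when the 3 libraries were left out. Against naïve mice, Loxl3 then had an unadjusted p under 0.05 (0.42, FDR = 0.324), as did 14.3% of all genes. Against day 1 contralateral libraries 4 members then had one, as did 12.9% of all genes. These were Lox (0.78, FDR = 0.343), Loxl3 (0.72, FDR = 0.286), Loxl4 (0.68, FDR = 0.343) and Loxl2 (0.50, FDR = 0.365).

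The injury effect itself, injured minus contralateral, was compared between the days as a contrast of group means. It was larger at day 7 for Loxl2 (difference in log2 fold change 2.16, SE 0.29, FDR = 2.988e-04) and Loxl1 (1.74, SE 0.40, FDR = 0.0195). These were 2 of the 5 members, where 3.53% of all genes were called higher. The differences of Lox (1.85, SE 0.64, FDR = 0.130), Loxl3 (1.36, SE 0.42, FDR = 0.0833) and Loxl4 (−0.34, SE 0.39, FDR = 0.719) were not called. The call for Loxl1 was lost on leaving out any of 4 single libraries. These were day 1 injured replicate 1 (FDR = 0.0581), day 1 contralateral replicate 3 (FDR = 0.0635), day 7 contralateral replicate 2 (FDR = 0.0565) and day 7 injured replicate 3 (FDR = 0.0750). Without the 3 libraries with high acute injury genes, Loxl1 (1.37), Loxl2 (1.96) and Loxl3 (1.13, FDR = 0.0351) were called, where 2.39% of all genes were called higher. In the deposited TPM limma called no member in this contrast (Loxl2 1.81, FDR = 0.228; Loxl1 1.32, FDR = 0.665), and 43 genes in all.

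The order of the groups by mean level was thus short for Lox, Loxl1, Loxl2 and Loxl3. Day 7 injured stood first. The means of the other 4 groups lay from 117 to 184 CPM for Lox and 32.2 to 42.1 CPM for Loxl1. They lay from 58.5 to 93.8 CPM for Loxl2 and 25.1 to 31.2 CPM for Loxl3. Between those neighbours that were compared, edgeR called no difference. In the deposited TPM, limma called Lox, Loxl1 and Loxl2 higher in day 1 injured than in naïve libraries, as given above. Day 7 contralateral and day 1 injured libraries were not compared. For Loxl4 the order was day 7 injured (30.0 CPM), day 7 contralateral (24.2 CPM), day 1 injured (21.9 CPM), naïve (17.5 CPM) and day 1 contralateral (14.03 CPM). Here too edgeR called no difference in a neighbouring pair that was tested. On the scale of the deposited TPM, limma called Loxl4 higher in day 1 injured than in naïve libraries. In TPM the order was another, with day 1 injured first (5.05 TPM), then day 7 injured (4.06 TPM), day 7 contralateral (3.76 TPM), naïve (2.82 TPM) and day 1 contralateral (2.76 TPM).

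Levels can be set side by side between genes only per transcript length, for which TPM was used within each library. In naïve libraries the family summed to 38.5 ± 11.7 TPM (SD, n = 6). Lox made up 37.6% ± 6.91 of this sum, Loxl2 26.1% ± 6.04, Loxl1 15.6% ± 1.95, Loxl3 12.9% ± 1.41 and Loxl4 7.87% ± 2.25. In day 7 injured libraries the sum was 147 ± 39.8 TPM (SD, n = 3). The mean of the day 1 injured libraries lay in between, at 68.9 ± 12.5 TPM (SD, n = 3; 55.4 to 79.9 TPM), against 39.7 ± 14.3 TPM in day 1 contralateral and 34.9 ± 17.2 TPM in day 7 contralateral libraries. These libraries overlapped with the naïve ones (28.7 to 60.1 TPM) and the day 1 contralateral ones (31.0 to 56.2 TPM), whose highest values belonged to the libraries with high acute injury genes. With the 3 libraries left out, the sums were 28.7 to 41.9 TPM in naïve, 31.0 and 31.8 TPM in day 1 contralateral and 55.4 and 79.9 TPM in day 1 injured libraries, which then did not overlap. With all libraries, the median of all genes in TPM was also higher in day 1 injured than in naïve libraries, as given above. After TMM scaling, edgeR called no member between these groups. The share of single genes without such overlap was not counted. Differences in the sum were not tested. At day 7 after injury the share of Lox was 39.4% ± 1.55, of Loxl2 37.5% ± 1.47, of Loxl1 11.7% ± 1.03, of Loxl3 8.65% ± 0.971 and of Loxl4 2.78% ± 0.297. The share of Loxl2 did not overlap between the groups (14.6% to 31.9% in naïve, 36.4% to 39.1% in day 7 injured), nor did that of Loxl4 (3.75% to 9.61% and 2.501% to 3.09%). Differences between members in their response were not tested.

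**Figure D4:**
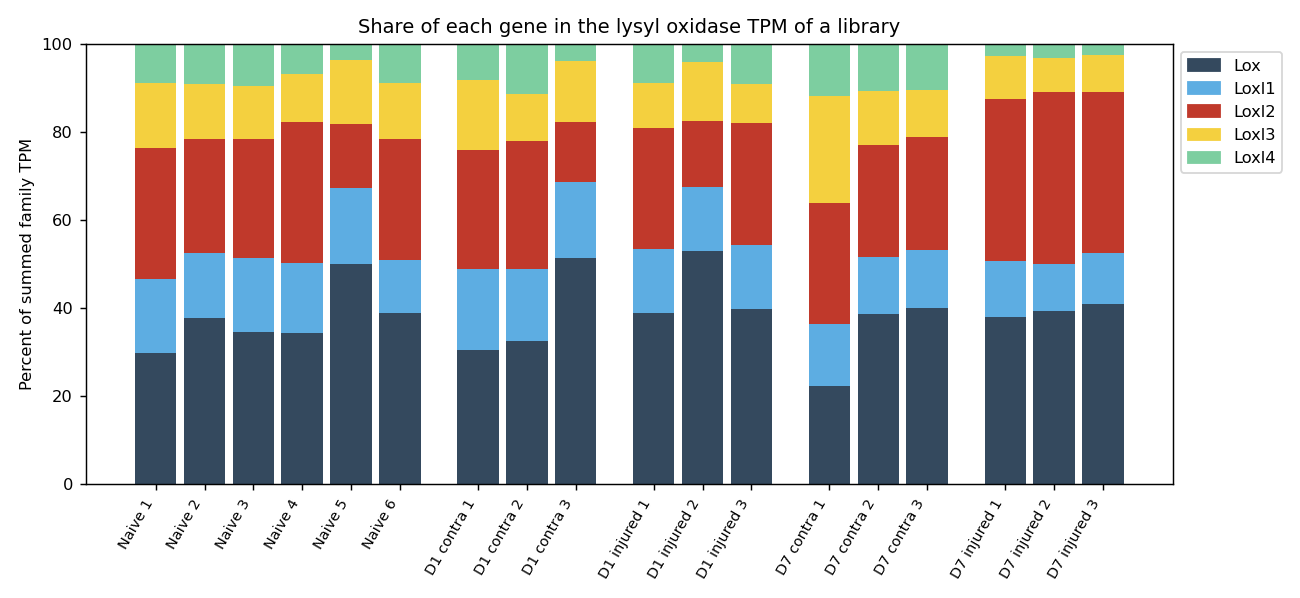
Share (y axis, percent) of each lysyl oxidase gene in the summed TPM of the family in each of the 18 libraries (bars, x axis), so that every bar adds up to 100. The day 7 injured bars hold the widest Loxl2 segment (36.4% to 39.1%) and the narrowest Loxl4 segment (2.501% to 3.09%).

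The genes with the pattern most like each member were sought over the 18 libraries, by the root mean square difference of log2(CPM + 0.5) after centring each gene on its naïve mean, among 21261 other genes. Nearest to Loxl2 were Antxr1 (0.15), a collagen-binding receptor, Col6a2 (0.18), which encodes a chain of collagen VI, and Matn2 (0.19), a matrilin. Nearest to Lox were Adam12 (0.26), a metalloprotease, the microfibril gene Fbn1 (0.30) and Sorcs2 (0.32). Nearest to Loxl1 were Pmepa1 (0.15), Adgra2 (0.17) and Smoc1 (0.17), nearest to Loxl3 the syndecan gene Sdc1 (0.14), Gpr153 (0.17) and Pmepa1 (0.19), and nearest to Loxl4 Pcdh12 (0.19), Zfp618 (0.22) and Enpep (0.22). Pmepa1, a target and inhibitor of TGFβ signalling, was thus among the 3 nearest genes of both Loxl1 and Loxl3. Among pairs of members, Loxl1 and Loxl3 were the closest (0.24) although they belong to different subfamilies, and Loxl4 was the farthest from each of the others (0.74 to 0.96). The 18 libraries share the day 7 injury contrast, so these distances do not come from independent conditions.

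The fibrillar collagens, the main substrates, were higher at day 7 for 8 of 11 genes against naïve mice, and none was lower (median log2 fold change 1.91). Over all genes tested, 10.4% were called higher against naïve mice and 9.33% against the day 7 contralateral knees, which holds for every list below. Collagen III (Col3a1) rose most, from 1825 ± 615 to 22660 ± 1426 CPM (SD; log2 fold change 3.65, FDR = 1.264e-07). The collagen I genes Col1a1 (2.05, FDR = 1.721e-05) and Col1a2 (1.91, FDR = 1.57e-05) also rose. The cartilage collagen gene Col2a1 was not called, at 3240 ± 886 CPM in naïve and 3800 ± 276 CPM in day 7 injured libraries, nor were Col11a2 and Col27a1. Against the day 7 contralateral knees 5 of the 11 were called higher, and Col1a1 (0.77, FDR = 0.188) and Col1a2 (0.75, FDR = 0.152) were not. Col1a1 was at 29820 ± 19820 CPM in those contralateral libraries and 12420 ± 3807 CPM in naïve ones (SD). Of the contralateral libraries, replicate 1, which stood apart, was at 52440 CPM and the other 2 were at 15480 and 21550 CPM. Without it, 7 of the 11 were called higher, where 9.31% of all genes were, and Col1a1 (1.48, FDR = 0.00609) and Col1a2 (1.33, FDR = 0.00708) were among them.

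Elastic fibre genes were higher at day 7 for 13 of 17 against naïve mice, with a median log2 fold change of 1.52 and none lower. Fbn1, the fibrillin of microfibrils, rose from 236 ± 95.4 to 1061 ± 145 CPM (SD; log2 fold change 2.19, FDR = 7.368e-05), and Ltbp3, which holds latent TGFβ in the matrix, rose 1.54 on the log2 scale (FDR = 2.904e-07). Emilin2, an elastic fibre glycoprotein, was at 122 ± 9.65 and 120 ± 4.97 CPM and was not called. Of the proteins that activate or dock the enzymes, 9 of the 11 tested were higher and none lower, and Tll2 was too low to be tested. Periostin (Postn), which holds Bmp1 on the matrix, rose 4.29 on the log2 scale (FDR = 2.977e-06), fibromodulin (Fmod), which binds Lox to collagen, rose 1.99 (FDR = 6.14e-06), and fibronectin (Fn1) rose 1.63 (FDR = 5.328e-05). Against the day 7 contralateral knees 12 of the 17 elastic fibre genes and 9 of the 11 activation and docking genes were called higher.

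The enzymes and chaperones that hydroxylate lysines and fold collagen were higher for 16 of 17 genes, with a median log2 fold change of 1.58, and Colgalt2 was the 1 not called. Serpinh1, the collagen chaperone, rose from 270.0 ± 49.7 to 927 ± 91.4 CPM (SD; log2 fold change 1.80, FDR = 2.909e-06). P4hb rose 0.97 (FDR = 1.548e-04) and Ppib, a prolyl isomerase, 0.76 (FDR = 2.355e-05). Against the contralateral knees of day 7, 16 of 17 were called higher as well.

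Genes that take up or deliver copper, the cofactor of the family, were higher for 2 of 12 and lower for none against naïve mice, with a median log2 fold change of 0.23, where 10.4% of all genes were called higher. Against the day 7 contralateral knees 2 were higher and 2 lower, where 9.33% of all genes were called higher and 3.23% lower. The lower ones were the exporter Atp7b (−0.66, FDR = 0.00758) and the mitochondrial chaperone Cox17 (−0.59, FDR = 0.0181). Without the 3 libraries with high acute injury genes, 4 were higher and the same 2 lower than in those contralateral knees. The 2 higher than in naïve mice were the copper importer Slc31a1 (0.60, FDR = 6.227e-04) and the metalloreductase Steap3 (0.90, FDR = 1.596e-07), both named because the count is small. Atp7a, which loads copper into secreted enzymes, gave 0.38 (FDR = 0.00611) and stayed under the 1.5-fold limit. The copper chaperone Atox1 (0.24, FDR = 0.171) and the metallothioneins Mt1 (0.63, FDR = 0.384) and Mt2 (0.21, FDR = 0.869) were not called. The count of 2 higher than in naïve mice was 1 with all 18 libraries in the fit and 4 without the 3 libraries with high acute injury genes. Of the other copper amine oxidases, Aoc2 fell by 0.63 on the log2 scale (FDR = 0.0209), a call lost without naïve replicate 1, day 7 injured replicate 2 or day 7 injured replicate 3. Against the day 7 contralateral knees it was not called (−0.46, FDR = 0.182). Aoc3 gave 0.46 (FDR = 0.370) against naïve mice, and Aoc1 was too low to be tested.

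Of 14 known inducers of lysyl oxidase genes and their signalling parts, 6 were higher and none lower, with a median log2 fold change of 0.49 (10.4% of all genes were called higher). The receptor gene Tgfbr2 rose from 139 ± 6.73 to 244 ± 25.2 CPM (SD; log2 fold change 0.83, FDR = 1.443e-06), and the matricellular gene Ccn2 rose 0.60 (FDR = 0.00551). The ligand gene Tgfb1 was at 157 ± 12.7 and 148 ± 6.74 CPM and was not called. The other ligands Tgfb2 and Tgfb3, the signal transducer Smad3 and the hypoxia factor Hif1a made up the rest of the 6. Against the day 7 contralateral knees 5 of the 14 were called higher. In the comparison labelled day 1 injured against naïve, edgeR called none of the genes in these 7 lists and none of all genes tested. DESeq2 called 15 genes in all there, and limma on the deposited TPM also called genes, as given above. When the 3 libraries with high acute injury genes were left out, the counts called higher at day 7 against naïve mice were 8 of 11 fibrillar collagens, 14 of 17 elastic fibre genes, 9 of 11 activation and docking genes, 16 of 17 hydroxylation and folding genes and 4 of 14 inducers.

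**Figure D5:**
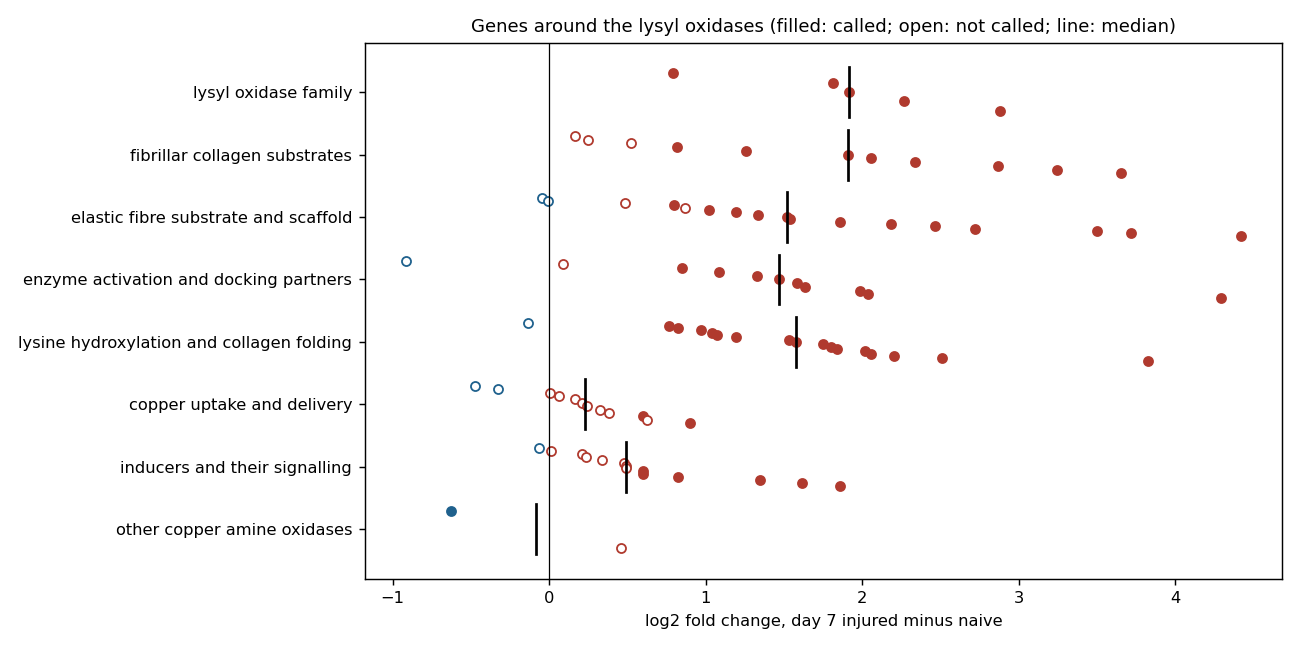
Log2 fold change of day 7 injured minus naïve (x axis) of each tested gene (points) in the lysyl oxidase family and 7 lists around it (y axis), filled where called, open where not, red above 0 and blue below, with the list median as a line. The medians run from −0.09 for the other copper amine oxidases and 0.23 for copper delivery to 1.91 for fibrillar collagens and 1.92 for the family.

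Markers of other cells moved with the day 7 injured group. All 6 markers of activated fibroblasts were higher than in naïve mice, and their summed level had a median of 3607 CPM (2634 to 4157) against 463 CPM (429 to 489), with Col12a1 the most abundant. All 5 tendon and ligament markers were higher, with a median sum of 746 CPM against 230 CPM and Thbs4 the most abundant, and Scx and Tnmd were detected in both groups. Of 9 synovial fibroblast markers, 4 were higher (1333 CPM against 419 CPM, Col14a1 the most abundant), and of 6 endothelial markers 4 were higher (435 CPM against 286 CPM, Pecam1 the most abundant). The part of these cells in the rise of the lysyl oxidase genes was not tested.

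The labelled tissue was checked by 10 chondrocyte markers, which were present in every library, with summed levels of 4292 to 13950 CPM and Col2a1 the most abundant. Of these, 3 were higher at day 7 in injured knees than in naïve mice (Acan, Comp and Sox9), and the median sum was 8675 CPM against 5621 CPM. Blood, muscle and fat RNA was present as well. The 6 erythroid markers summed to a median of 22340 CPM in day 7 injured and 32160 CPM in naïve libraries (3 lower, Hbb-bs the most abundant), and the 7 neutrophil markers to 6472 and 9249 CPM (2 lower, Ngp the most abundant). The 6 muscle markers summed to 3452 and 5779 CPM (none called, Myh4 the most abundant) and the 5 adipocyte markers to 117 and 227 CPM (2 lower, Fabp4 the most abundant). Of 8 macrophage markers none was called (2558 and 2659 CPM, Lyz2 the most abundant), and of 8 osteoblast and osteocyte markers 1 was higher and 1 lower (832 and 766 CPM, Ibsp the most abundant).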

How the data were processed

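The 18 libraries of cartilage RNA were grouped by the labels. After read trimming, the authors ran kallisto against a mouse transcriptome and deposited, per transcript, estimated counts, effective lengths and TPM values, without further normalization. The labels name GRCh38 as the build, whereas the identifiers are those of mouse transcripts and the study's methods name GRCm38. Whether strand was used is not given in the sources used here. The study removed 1 ACL library for low mapping, which is not named.

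Transcripts (135107 of 137436, 98.3%) were matched to GENCODE genes of GRCm38, and their estimated counts were summed and rounded. The unmatched ones held 0.667% to 3.90% of a library. Groups were compared in edgeR 4.0.16 under R 4.3.3 (quasi-likelihood test) after TMM scaling and filterByExpr, with a mean per group and no covariate. P-values were adjusted by Benjamini-Hochberg over all genes, and called genes had an FDR no higher than 0.05 and a change of 1.5-fold or more. Comparisons with the day 7 contralateral group were fitted on 18 libraries and 21262 genes, the others on 15 libraries and 21129 genes. DESeq2 1.42.0, limma 3.58.1 (voom), other scalings and filters, and leaving out each library were alternatives. Leaving out the 3 libraries with high acute injury genes, and day 7 contralateral replicate 1 for the collagens, was chosen after seeing the data, as was limma on log2(TPM + 0.5) of the deposited TPM. In simulated counts with 200 genes changed 3-fold, 180 were called with 5 unchanged genes (day 7 injured against naïve, 20722 genes), and 152 with 4 (against day 7 contralateral, 20854 genes). TPM was used for shares between genes, since the deposited TPM is scaled by length.

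The members and gene lists were chosen with earlier results of these data known. Beside the members, the text names the 3 genes of highest mean TPM in each list, genes called against the majority of their list, and the 3 genes nearest to each member. Col2a1 and other collagens not called, Atp7a, Slc31a1, Steap3, Atp7b, Cox17, Colgalt2, Tgfb2, Tgfb3, Smad3, Hif1a and the acute injury genes were named after their values were seen. No 2 libraries held identical values. Some genes of the acute response are not reported here.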

Additional observations from a re-analysis of the deposited data

Results flagged for a closer look

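The following 3 naïve values lay far from the other naïve libraries, by the gap to the next library relative to the range of the group, a rule that chance meets in about 1 in 20 groups. The highest naïve library was at 250.7 CPM for Lox (the next at 130.3 CPM) and at 43.1 CPM for Loxl3 (the next at 26.4 CPM), and both values belong to replicate 5, the naïve library with high acute injury genes. For Loxl2 the highest value, 114 CPM (the next at 77.8 CPM), belongs to naïve replicate 4, which did not have them.

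The injury effect differed between day 7 and day 1 by a test of the difference itself for Loxl2 (2.16 on the log2 scale) and Loxl1 (1.74). The day 1 groups in this contrast contain day 1 injured replicate 2 and day 1 contralateral replicate 3, both with high acute injury genes. Without these and naïve replicate 5, the differences were 1.96 and 1.37, and both were called. The call for Loxl1 was lost on leaving out some single libraries, among them day 1 contralateral replicate 3, as given above. In the deposited TPM neither gene was called.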

How the results depend on the processing

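In the comparisons of day 7 injured knees and the contrast of the injury effects, Loxl4 changed direction against day 1 injured libraries in the deposited TPM (−0.22 by limma), where the median of all genes was −0.60, and no other member did under the alternatives run. Loxl2 was called in all of them (log2 fold change 2.45 to 3.02 against naïve mice), except for the contrast in TPM. In TPM the members called were 4 for day 1 injured against naïve and 0 for the contrast, and the genes called higher were 0 for copper and 3 for the inducers. For the contrast of injury effects, the count of members called fell from 2 to 1 at an FDR of at most 0.01 and ran from 1 to 3 when single libraries were left out. Loxl3 was also called there by DESeq2 (1.34, FDR = 0.0325), without naïve replicate 5 (1.36, FDR = 0.0366) and without day 7 contralateral replicate 1 (1.67, FDR = 0.0332). The count of copper genes higher at day 7 was 1 without the filter on low counts and with all 18 libraries in the fit, 4 without the 3 libraries with high acute injury genes, and 1 to 2 when single libraries were left out, with 0 to 1 lower. Leaving out single libraries gave 0 to 1 of the other copper amine oxidases lower (Aoc2) and 0 to 1 of the activation and docking genes lower, and the latter was 1 (Tnxb) without the 3 libraries. The causes were not tested. No paired analysis was possible because the numbers used here only name libraries, the labels give none, and they do not say which knees came from the same mice, which the study's own model used. The 3 libraries per group limit what small changes, such as that of Loxl4, can be told from the spread.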

Other observations

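Other genes also differed between the 3 libraries with high acute injury genes and the 12 other libraries outside the day 7 injured group. Prg4, which encodes the lubricant of the cartilage surface, was at 1409 to 1775 CPM in the 3 libraries and at 240.5 to 892 CPM in the 12 others, and the day 7 injured libraries overlapped with both (729.6 to 1771 CPM). Pdpn, a marker of lining fibroblasts, was at 45.5 to 54.1 CPM against 5.69 to 15.2 CPM, and at 40.8 to 52.5 CPM in the day 7 injured libraries. The 5 adipocyte markers summed to 104 to 121 CPM in the 3 libraries, 187 to 375 CPM in the 12 others and 111 to 158 CPM in the day 7 injured libraries. The 3 libraries were picked for their values, so these ranges are a description and were not tested.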
